A study of Mus musculus with 3 samples.

Results

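*Pi16*+ cells were defined as stromal cells that carried at least 1 unique molecular identifier (UMI, 1 captured transcript molecule) of *Pi16*, a gene for a secreted or membrane-anchored peptidase inhibitor that lies at chr17:29317680-29330593 on the plus strand (mm10). A cell was counted as stromal when it held 200 to 6000 detected genes, at most 5% mitochondrial UMIs, at least 1% of its UMIs in the 5 matrix genes *Col1a1*, *Col1a2*, *Col3a1*, *Dcn* and *Lum*, and no UMI of the macrophage gene *C1qa*. Cells with a UMI of *Acan*, the cartilage proteoglycan aggrecan, were left out. By this rule 1418 of 21503 cells that passed the limits on genes and mitochondrial UMIs were *Pi16*+, and the 3 libraries contributed 984 (Matrigel-only), 117 (Vehicle) and 317 (Palo).

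The cells came from subcutaneous implants of female CD-1 mice aged 6 to 8 weeks, a model of early heterotopic ossification (HO), and each implant was harvested on day 5 and digested with dispase. Matrigel-only mice received Matrigel, a basement membrane gel, without recombinant human BMP2 and without any oral dosing. Vehicle and Palo mice received Matrigel mixed with rhBMP2 plus daily oral corn oil/DMSO or palovarotene at 4 mg/kg, respectively. Palovarotene is a synthetic retinoid that activates retinoic acid receptor γ. No transgene or gene deletion was used, and the implants were placed under the skin of outbred animals. Each condition was 1 10x Genomics library whose labels tie no cell to an animal, with 9249, 6065 and 7905 barcodes and 44252421, 46317250 and 46901673 UMIs in Matrigel-only, Vehicle and Palo. Vehicle and Matrigel-only therefore differed in both rhBMP2 and oral dosing, and only Palo and Vehicle differed by the drug alone. With 1 library per condition there was no replicate check and no test: every interval below is a 95% interval that covers counting error only, and a gene is called higher or lower when its CPM (the gene's summed UMIs per 1000000 UMIs of the class), with 5 CPM added, differed by at least 2-fold.

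Fibroblasts with *Pi16* and *Dpp4* are found in the fascia and the adventitia of many tissues, where they sit in collagen- and elastin-rich layers and are regarded as a reserve of progenitors for more specialised fibroblasts and for adipocytes. They carry the surface sialomucin CD34 and the antigen *Ly6a* (Sca-1). BMP2 acts on such mesenchymal cells through type I and type II receptors and the SMAD proteins, which switch on Id genes, and it can lead them into the cartilage program that precedes ectopic bone. Activin A, a dimer of the *Inhba* product, is a related ligand that signals through overlapping receptors, and retinoid receptor agonists are known for blocking cartilage formation.

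The *Pi16*+ cells of Matrigel-only, Vehicle and Palo yielded 8121042, 1590194 and 3500473 UMIs, at a median of 8149.5, 13084 and 10959 UMIs per cell. Other stromal cells, those with neither *Pi16* nor *Acan*, were deeper in every library, with medians of 10067.5, 17301 and 13493 UMIs over 782, 403 and 659 cells. The condition on *Acan* removed 27 *Pi16*+ cells from Vehicle, 1 from Matrigel-only and none from Palo. The condition on *C1qa* removed 168, 23 and 51 stromal cells with a *Pi16* UMI from Matrigel-only, Vehicle and Palo. Few cells lay near the stromal limit: 2, 2 and 1 members had 1 to 2% of their UMIs in the matrix genes, and 6, 2 and 0 cells that met the other conditions had 0.5 to 1%. A total of 34, 6 and 15 members (3.46%, 5.13% and 4.73%) carried a UMI of the leukocyte gene *Ptprc*. Cells with the highest doublet scores made up 27, 10 and 5 members (2.74%, 8.55% and 1.58%), against 3.57%, 3.32% and 1.84% of all stromal cells, so such cells were most frequent among the Vehicle members. In addition, 1 member in Matrigel-only had a barcode that was also found in another library.

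The label of mesenchymal progenitors was checked against *Clec3b* (tetranectin), *Cd34*, *Igfbp5* (an insulin-like growth factor binding protein) and *Scara5* (a ferritin scavenger receptor), which the rule did not use. Cells were thinned to 2900 UMIs so that depth did not set detection. At that depth at least 3 of the 4 genes were detected in 70.6%, 36.7% and 67.1% of the *Pi16*+ cells of Matrigel-only, Vehicle and Palo. The same share was 14.0%, 0.873% and 7.70% among other stromal cells. None of the 4 was detected in 4.24%, 17.2% and 7.65% of the *Pi16*+ cells. The markers were thus carried by most members in Matrigel-only and Palo, whereas Vehicle held the largest part of members without them, and the cells are called *Pi16*+ cells below rather than progenitors.

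The members were chosen by their measured *Pi16*, *Acan*, *C1qa* and matrix-gene UMIs, so the frequency of *Pi16* is given as a description. At 2900 UMIs per cell *Pi16*+ cells made up 46.2% (43.8 to 48.7) of the stromal cells of Matrigel-only, 6.79% (5.40 to 8.41) of those of Vehicle and 23.7% (21.0 to 26.5) of those of Palo. Without thinning the shares were 55.7%, 9.71% and 32.3%. The Vehicle share was 39.4 percentage points below that of Matrigel-only (interval of the difference −42.2 to −36.5), and the Palo share was 16.9 points above Vehicle (13.8 to 20) and 22.6 points below Matrigel-only (−26.2 to −18.8). As a measure of free RNA, 3.65%, 1.47% and 2.04% of *C1qa*-positive cells with under 1% matrix UMIs showed *Pi16* after the same thinning; their median depths were 2916.5, 3604 and 3952 UMIs. All 3 stromal shares lay above this background. The Vehicle denominator contained 685 *Acan*-positive stromal cells, against 1 in Matrigel-only and 4 in Palo. Without them, a denominator added after the data were seen, the thinned shares were 46.3%, 16.4% (13.2 to 20.1) and 23.8% (22.5% in Vehicle without thinning). The Palo share was then 7.36 points above that of Vehicle (2.9 to 11.5), and the Vehicle share 29.9 points below that of Matrigel-only (−33.8 to −25.5). The order of the libraries did not change, and the Vehicle value and its distance from Palo each moved by more than 2-fold. Of all cells that passed the limits, *Pi16*+ cells were 11.3%, 2.14% and 4.34%, so the order of the libraries was the same with that denominator.

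**Figure D1:**
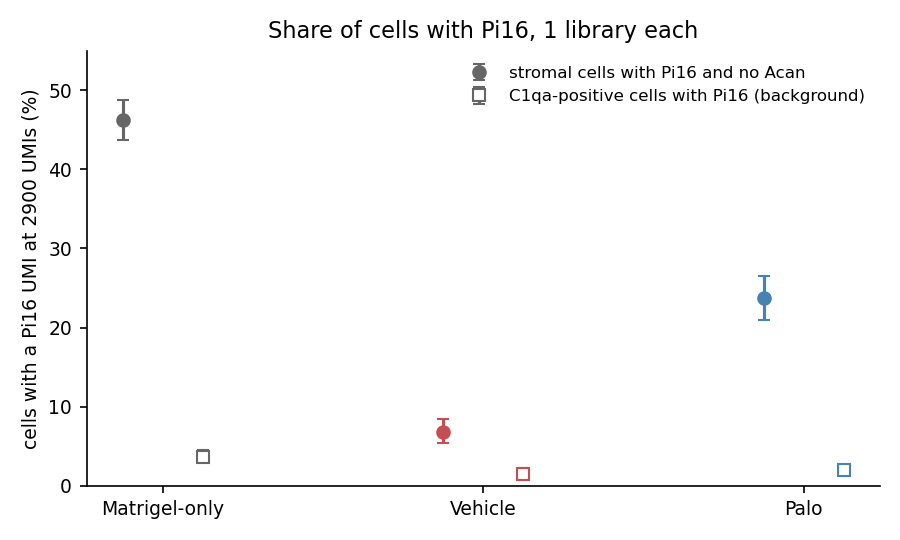
Percentage of cells with a *Pi16* UMI after thinning each cell to 2900 UMIs, in 1 library per condition, with exact 95% binomial intervals. Filled circles are *Pi16*+ cells as a share of stromal cells and open squares are *C1qa*-positive cells with *Pi16*, a measure of free RNA: the circles stand at 46.2%, 6.79% and 23.7% and the squares at or below 3.65%.

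The genes whose distribution was most like that of *Pi16* were ranked by the smallest of the 3 libraries' ratios of *Pi16*+ over other stromal cells, among genes with at least 50 CPM. Because the cells were split on *Pi16* in these same data, the values describe the split and do not test it. The 10 leading genes were *Igfbp5*, *Akr1c14*, *Pgr*, *Thbd*, *Akr1c18*, *Itih5*, *Tek*, *Scara5*, *Efhd1* and *Clec3b*. *Igfbp5* stood at 2353, 804 and 2130 CPM in *Pi16*+ cells of Matrigel-only, Vehicle and Palo, against 217, 16.8 and 200 CPM in other stromal cells. *Clec3b* stood at 1600, 838 and 1526 CPM, against 305, 16.9 and 144 CPM. *Akr1c18*, a steroid-converting aldo-keto reductase, had 315, 136 and 387 CPM, against 41.4, 2.37 and 14.6 CPM. In each of these 3 genes Vehicle had the lowest level in both classes of cells. With 5 CPM added, the ratio between the classes was highest in Vehicle for *Igfbp5* and *Clec3b* (log2 5.22 and 5.27), while for *Akr1c18* it was about the same in Vehicle and Palo (4.26 and 4.32).

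Several of the leading genes are better known from other cell types. *Tek*, the angiopoietin receptor of endothelial cells, was measured at 75.5, 25.8 and 80.0 CPM in *Pi16*+ cells and at 6.75, 0.297 and 3.15 CPM in other stromal cells. The summed level of 8 endothelial markers in *Pi16*+ cells was 116, 61.6 and 116 CPM, with *Tek* the most abundant. In other stromal cells it was 19.9, 6.97 and 15.2 CPM. Of the 8 markers 2 passed the minimum of 20 CPM, and both were higher in *Pi16*+ cells of each library. The defining endothelial genes *Cdh5* and *Cldn5* were at 0 UMIs in the *Pi16*+ cells of all 3 libraries, and *Emcn* was at 0 in Matrigel-only and Palo. *Thbd*, the anticoagulant receptor thrombomodulin, was at 166, 44.6 and 90.3 CPM, against 12.9, 1.78 and 6.2 CPM in other stromal cells. *Pgr*, the progesterone receptor, was at 133, 50.3 and 46.9 CPM, against 10.9, 1.19 and 2.07 CPM. Both were highest in Matrigel-only. *Bmp7*, a bone morphogenetic protein that was named after its values were seen, was also largely restricted to *Pi16*+ cells, with 28.3, 13.2 and 39.1 CPM against 0.592, 0.297 and 0.435 CPM in other stromal cells. The latter levels rest on 5 or fewer UMIs each.

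Of 30 progenitor genes measured, 19, 27 and 22 were higher in *Pi16*+ than in other stromal cells of Matrigel-only, Vehicle and Palo. None was lower, and 4.11%, 7.85% and 3.85% of all genes were higher. The fascial fibroblast genes *Dpp4*, *Tnxb* and *Ly6a* were among those higher in each library. *Dpp4*, the peptidase CD26, was at 375, 147 and 291 CPM in *Pi16*+ cells and at 66.5, 1.48 and 63.3 CPM in other stromal cells. *Tnxb*, the elastic-fibre protein tenascin-X, was at 1183, 712 and 1044 CPM, against 427, 10.2 and 213 CPM. *Ly6a* was at 3135, 2644 and 2293 CPM, against 1425, 567 and 937 CPM. At the other end, *Tnc* (tenascin-C, a matrix protein of wounds and developing cartilage) stood at 235, 419 and 215 CPM in *Pi16*+ cells and at 1183, 2676 and 1167 CPM in other stromal cells. Over all 6908 genes tested, 284 (4.11%), 542 (7.85%) and 266 (3.85%) were higher in *Pi16*+ than in other stromal cells of Matrigel-only, Vehicle and Palo, and 185 (2.68%), 145 (2.1%) and 113 (1.64%) were lower.

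**Figure D2:**
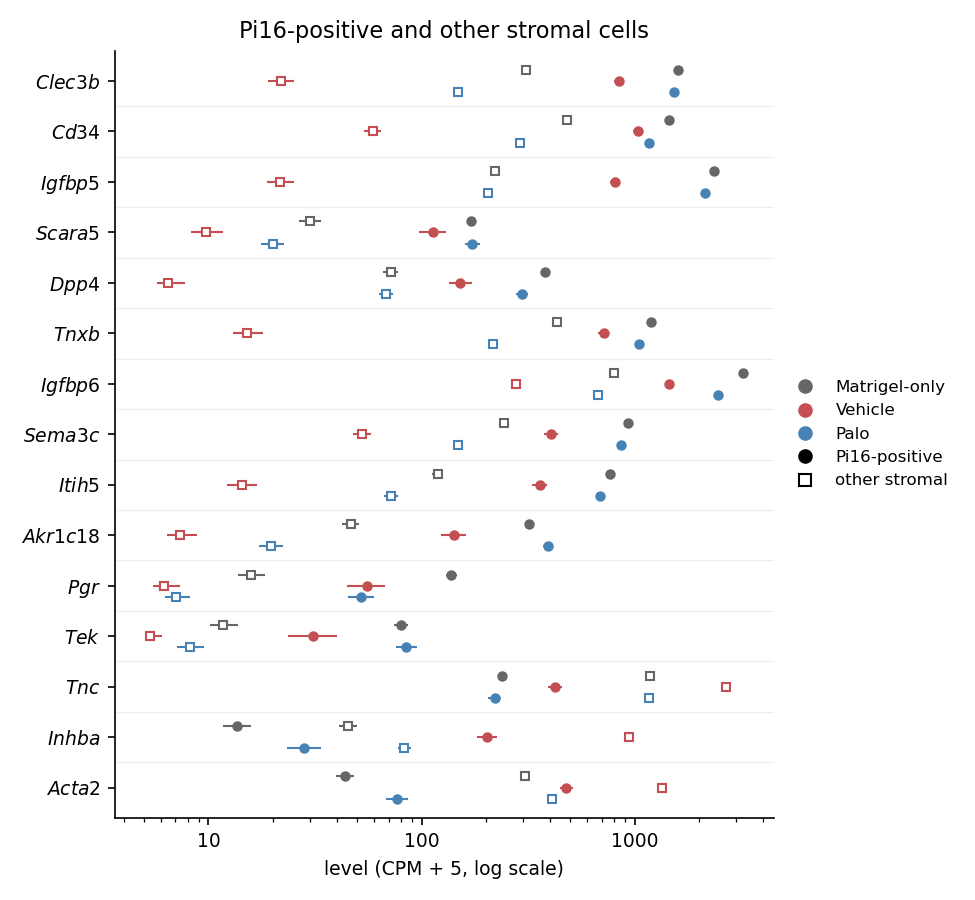
Levels of 15 genes (CPM plus 5, log scale) in *Pi16*+ cells (filled circles) and in other stromal cells (open squares) of the 3 libraries, with exact Poisson 95% intervals. Circles lie to the right of the squares of the same library for *Clec3b* to *Tek* and to the left for *Tnc*, *Inhba* and *Acta2*; *Clec3b* in Vehicle is 838 against 16.9 CPM.

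The *Pi16*+ cells were not uniform. The median number of *Pi16* UMIs per member was 9, 8 and 9 in Matrigel-only, Vehicle and Palo, and the highest number was 99, 89 and 110. Members with a single *Pi16* UMI numbered 170 (17.3%), 24 (20.5%) and 69 (21.8%), those with 2 to 4 numbered 172, 22 and 48, and those with 5 or more numbered 642 (65.2%), 71 (60.7%) and 200 (63.1%). *Clec3b* went up with *Pi16* in every library: in Vehicle it was at 107, 396 and 1250 CPM in cells with 1, 2 to 4 and 5 or more *Pi16* UMIs. *Dpp4* in Vehicle was at 11.0, 35.7 and 233 CPM in the same classes. *Inhba* in Vehicle ran the other way, with 749, 139 and 2.12 CPM. Among cells with 5 or more *Pi16* UMIs *Inhba* was at 2.28, 2.12 and 2.38 CPM in Matrigel-only, Vehicle and Palo, from 12, 2 and 5 UMIs, values that lay close to each other.

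*Fmod* and *Acta2* had the same order as *Inhba*. In Vehicle *Fmod* (fibromodulin, a collagen-binding proteoglycan) was at 1259, 71.4 and 57.1 CPM in the cells with 1, 2 to 4 and 5 or more *Pi16* UMIs. *Acta2*, the smooth muscle actin of myofibroblasts, was at 1819, 271 and 14.8 CPM. A different set was highest in the Vehicle cells with most *Pi16*. *Apoe*, the lipid carrier apolipoprotein E, was at 417, 2035 and 2151 CPM there, complement *C3* at 250, 1185 and 2045 CPM, and the eosinophil-attracting chemokine *Ccl11* at 27.4, 189 and 476 CPM. Thus *Inhba*, *Fmod* and *Acta2* were carried mainly by Vehicle cells with little *Pi16*, and *Apoe*, *C3* and *Ccl11* by those with more.

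Across single members the log-scaled level of *Pi16* was related to that of the other markers. Pearson's r with *Clec3b* was 0.56, 0.73 and 0.70 over 984, 117 and 317 cells of Matrigel-only, Vehicle and Palo, and r with *Cd34* was 0.52, 0.62 and 0.62. With *Inhba* it was −0.23, −0.49 and −0.36, and with the hyaluronan receptor *Cd44* −0.41, −0.28 and −0.45. The sign of r with *Apoe* differed between libraries, at −0.08, 0.40 and −0.04. These cells share a library, and the levels of 2 genes in a cell share its depth, so the coefficients describe the cells and carry no p.

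**Figure D3:**
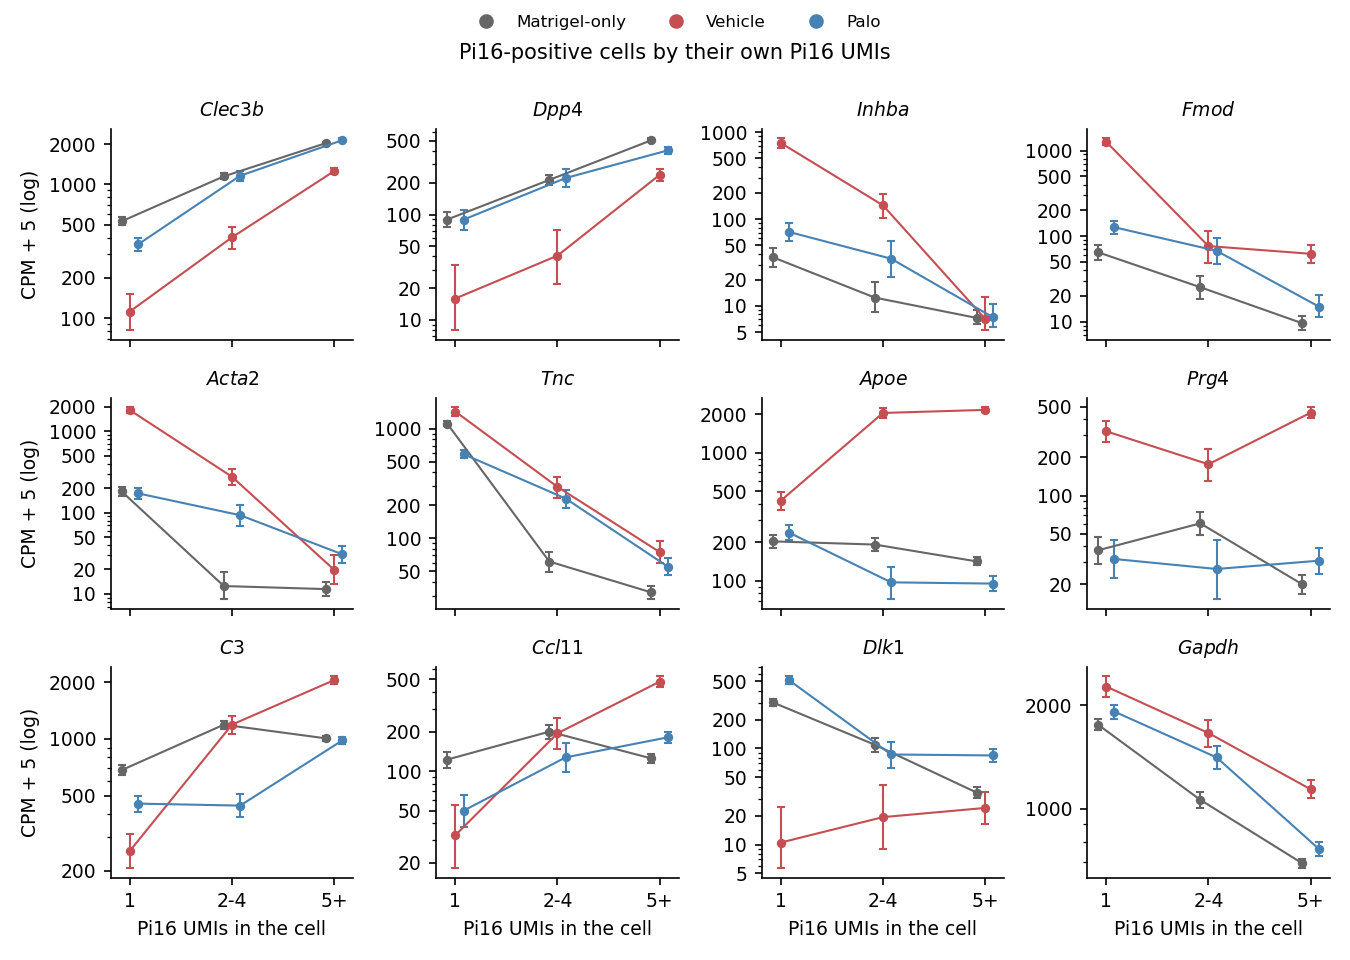
Levels of 12 genes (CPM plus 5, log scale) in *Pi16*+ cells with 1, 2 to 4 and 5 or more *Pi16* UMIs, with exact Poisson 95% intervals; lines join the classes of 1 library. In Vehicle, *Inhba* goes from 749 to 2.12 CPM and *Clec3b* from 107 to 1250 CPM as *Pi16* goes up.

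Vehicle was set against Matrigel-only, a pair that differed in both rhBMP2 and oral dosing. Of 6908 genes tested 138 (2%) were higher and 112 (1.62%) were lower in Vehicle, and the median log2 ratio over all genes was −0.00. The 10 genes with the highest ratios, described first, were *Fmod*, *Inhba*, *Apoc1*, *Prg4*, *Acta2*, *Apoe*, *Tnn*, *Car4*, *Masp1* and *Cxcl10*. *Fmod* was at 17.5, 335 and 46.9 CPM in Matrigel-only, Vehicle and Palo, which was 19.2-fold (15.9 to 23.2) higher in Vehicle than in Matrigel-only. *Inhba* was at 8.62, 197 and 23.1 CPM (22.9-fold, 17.6 to 30.1). Its 314 Vehicle UMIs came from 17 of 117 cells, and 1 cell held 33.4% of them. Other stromal cells had more *Inhba* in each library, at 40.2, 936 and 78.0 CPM. Over all members, the *Inhba* level of *Pi16*+ cells in Vehicle was thus above that of *Pi16*+ cells elsewhere and below that of other stromal cells of the same library. Members with little *Pi16* carried this level: the 24 Vehicle cells with 1 *Pi16* UMI held 86.9% of the *Inhba* UMIs. With 5 or more *Pi16* UMIs *Inhba* was at 2.28, 2.12 and 2.38 CPM in Matrigel-only, Vehicle and Palo, and Vehicle was no longer past 2-fold of Matrigel-only.

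*Apoe* was spread more evenly. It stood at 156, 1733 and 129 CPM (11.1-fold, 10.4 to 11.9), was detected in 97 of the 117 Vehicle cells, and its top cell held 7.66% of the UMIs. In other stromal cells *Apoe* was at 159, 247 and 78.6 CPM. *C1qa*-positive cells carried 17546, 10835 and 17356 CPM of *Apoe*, and the part of their RNA in the *Pi16*+ values was not tested. *Apoc1*, another apolipoprotein, was at 6.77, 163 and 1.71 CPM in *Pi16*+ cells. *Prg4* (lubricin, the boundary lubricant of joints and gliding tissue) was at 24.9, 367 and 25.4 CPM (14.7-fold, 12.5 to 17.4), against 27.0, 67.8 and 6.85 CPM in other stromal cells. *Masp1*, a protease of the lectin complement pathway, was at 6.77, 78.0 and 7.14 CPM. For each of these genes the Vehicle value stood apart and the Matrigel-only and Palo values were close to each other, apart from *Apoc1*, which was lowest in Palo.

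The remaining leaders were *Acta2*, at 38.7, 474 and 72 CPM, the matrix glycoprotein *Tnn* (tenascin-W), at 10.7, 158 and 8.28 CPM, carbonic anhydrase *Car4*, at 0.739, 52.2 and 0.286 CPM, and the chemokine *Cxcl10*, at 8.13, 80.5 and 2.86 CPM. With at least 5 *Pi16* UMIs *Acta2* and *Tnn* were no longer past 2-fold in Vehicle over Matrigel-only. *Acta2* was then at 6.46, 14.8 and 25.7 CPM in Matrigel-only, Vehicle and Palo. *Car4* rests on 6 UMIs in Matrigel-only and 1 in Palo. For *Cxcl10*, 1 Vehicle cell held 79.7% of the UMIs, and the difference was under 2-fold without the top cell of each library.

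The 10 genes with the lowest ratios were *Sparcl1*, *Retnla*, *Meox1*, *Uts2*, *Adamts16*, *Edn1*, *Dlk1*, *Ccl6*, *Islr2* and *Thbd*. *Sparcl1*, a matrix-associated relative of osteonectin, was at 97.5, 5.03 and 117 CPM in Matrigel-only, Vehicle and Palo, or 19.4-fold (9.79 to 45.1) higher in Matrigel-only than in Vehicle. *Meox1*, a homeobox transcription factor of mesoderm, was at 62.7, 4.40 and 78.6 CPM (14.2-fold, 6.86 to 35.6). *Dlk1*, an inhibitor of adipocyte differentiation, was at 92.1, 15.1 and 195 CPM (6.10-fold, 4.07 to 9.59). All 3 were lowest in Vehicle and highest in Palo. A single Palo cell held 21.9% of the *Dlk1* UMIs, and without the top cell of each library the log2 ratio of *Dlk1* in Palo over Matrigel-only went from 1.04 to 0.81. With at least 5 *Pi16* UMIs *Dlk1* was within 2-fold in Vehicle over Matrigel-only (−0.53). *Uts2* (the vasoactive peptide urotensin 2) had another pattern, with 70.7, 7.55 and 4.00 CPM, and was high in Matrigel-only alone. *Edn1* (endothelin 1) was at 95.8, 15.1 and 39.7 CPM, the metalloprotease *Adamts16* at 50.5, 4.40 and 32.0 CPM, and the membrane protein *Islr2* at 136, 30.2 and 81.1 CPM. *Retnla* and *Ccl6*, at 102, 5.66 and 151 CPM and 51.2, 6.92 and 45.4 CPM, were far more abundant in *C1qa*-positive cells, at 6345, 768 and 3696 CPM and 2255, 1101 and 1783 CPM. A single Palo cell held 64.5% of the *Retnla* UMIs of *Pi16*+ cells. The part of macrophage RNA in the *Pi16*+ values was not tested.

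**Figure D4:**
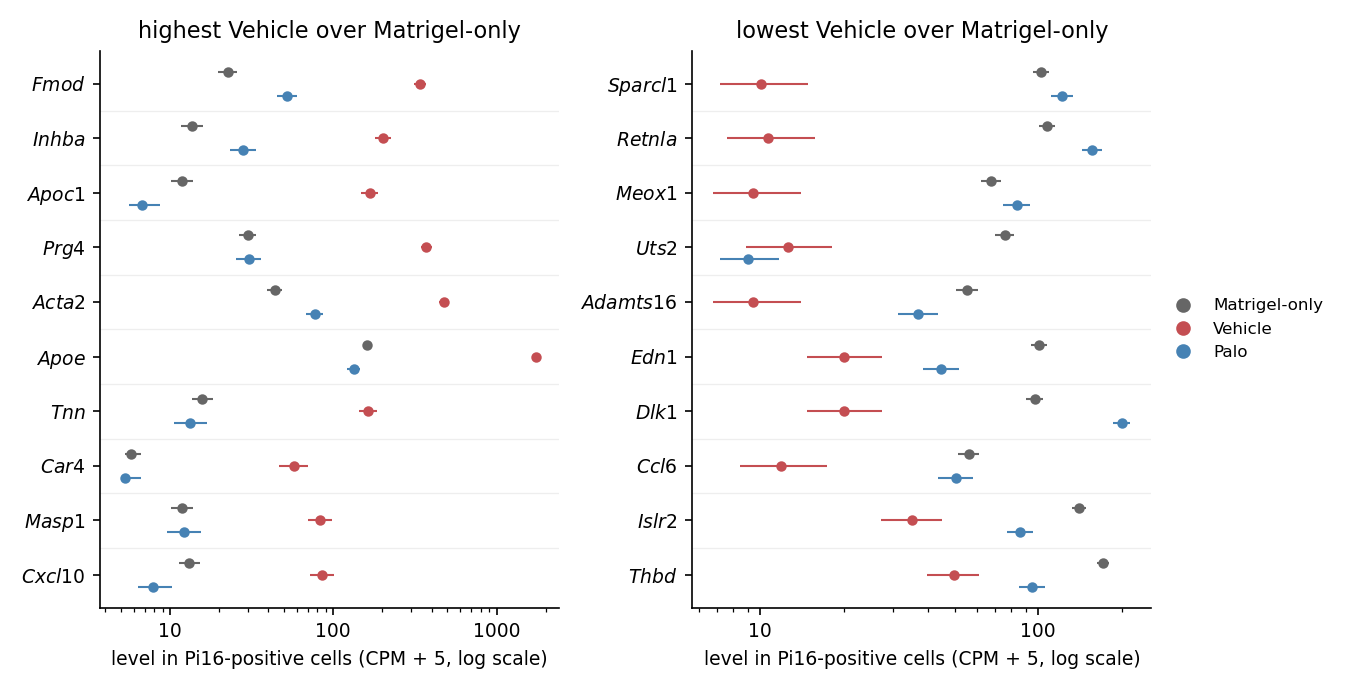
Levels in *Pi16*+ cells (CPM plus 5, log scale, exact Poisson 95% intervals) of the 10 genes with the highest and the 10 with the lowest ratio of Vehicle over Matrigel-only. In the left panel Vehicle lies to the right of the other libraries for all 10 genes, as with *Fmod* at 335 against 17.5 and 46.9 CPM; in the right panel Palo lies near or above Matrigel-only for *Sparcl1*, *Meox1* and *Dlk1* but near Vehicle for *Uts2*.

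The list of 30 measured progenitor genes, all of which passed the minimum of 20 CPM in 1 library, had 8 genes lower and none higher in Vehicle than in Matrigel-only, and its median log2 ratio was −0.72. Of all genes tested 1.62% were lower. The 8 were *Igfbp5*, *Dpp4*, *Sema3c*, *Creb5*, *Procr*, *Wnt2*, *Opcml* and *Igfbp6*. *Sema3c*, a secreted guidance factor, was at 925, 401 and 862 CPM in Matrigel-only, Vehicle and Palo, and *Igfbp6* at 3211, 1449 and 2447 CPM. With members chosen by *Pi16* after thinning (739, 73 and 231 cells) only 2 listed genes were lower in Vehicle, and *Dpp4*, *Sema3c*, *Creb5*, *Wnt2*, *Opcml* and *Igfbp6* were within 2-fold. *Creb5* and *Wnt2* were also within 2-fold with at least 2 *Pi16* UMIs and with the mean of the cells' own CPM. *Cd34* was at 1438, 1029 and 1162 CPM and *Scara5* at 166, 108 and 168 CPM, both within 2-fold. In other stromal cells 24 of the 30 genes were lower in Vehicle (median −1.67), beside 400 of all 6908 genes (5.79%). Fewer of the listed genes thus passed 2-fold within *Pi16*+ cells, which were selected for a marker of the same program, than outside them, and the difference between the counts was not tested.

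Palo was set against Vehicle, the pair that differed by the drug. A total of 80 genes (1.16%) were higher and 169 (2.45%) were lower in Palo, with a median log2 ratio of −0.03 over all genes. This comparison and the one above share the Vehicle cells, so a gene that was unusual in Vehicle appears in both. *Sparcl1* was 23.2-fold (11.7 to 54.2), *Meox1* 17.8-fold (8.55 to 44.8) and *Dlk1* 12.9-fold (8.59 to 20.3) higher in Palo. *Il1rl1*, the receptor for interleukin 33, was at 38.4, 9.43 and 91.1 CPM in Matrigel-only, Vehicle and Palo, with 35.4% of the Palo UMIs in 1 cell. *Cpz*, a carboxypeptidase that binds Wnt proteins, was at 94.6, 27.7 and 135 CPM, the proprotein convertase *Pcsk6* at 104, 30.2 and 114 CPM, and the collagen VI chain *Col6a6* at 41.4, 17.0 and 71.7 CPM. For these 3 genes Palo stood at or somewhat above Matrigel-only, and Vehicle lay below both.

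*Mmp9* (gelatinase B) and *Thbs4* (thrombospondin 4) were highest in Palo alone, at 11.1, 11.3 and 64.0 CPM and at 41.4, 25.2 and 113 CPM, and 1 Palo cell held 46.1% of the *Thbs4* UMIs. *Mmp9* in Palo was at 177, 57.9 and 14.8 CPM in cells with 1, 2 to 4 and 5 or more *Pi16* UMIs, and in the last class it was within 2-fold of Vehicle (log2 ratio 0.45). *Mmp9* was at 39.5, 20 and 102 CPM in other stromal cells. Of the genes that were lower in Palo than in Vehicle, *Apoe* was 13.5-fold (12.2 to 14.9), *Tnn* 19.1-fold (13.0 to 29.2), *Prg4* 14.4-fold (11.5 to 18.2), *Inhba* 8.53-fold (6.66 to 11.0) and *Fmod* 7.15-fold (5.99 to 8.58) lower. The difference in *Inhba* depended on members with few *Pi16* UMIs: its log2 ratio went from −2.85 to −0.35 with members chosen by *Pi16* after thinning and to 0.053 with at least 5 *Pi16* UMIs. In the list of 30 progenitor genes *Igfbp5*, *Sema3c* and *Wnt2* were higher and the hyaluronan synthase *Has1* was lower in Palo, with a list median of 0.58, beside 1.16% of all genes higher and 2.45% lower. *Sema3c* was within 2-fold with members chosen by *Pi16* after thinning (0.95) and with at least 5 *Pi16* UMIs (0.96). *Has1* was at 41.7, 73.6 and 23.4 CPM.

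Palo and Matrigel-only, which differed in rhBMP2, dosing and drug, had the fewest genes past 2-fold in *Pi16*+ cells: 32 (0.463%) were higher and 54 (0.782%) lower in Palo. Neither library of this pair is Vehicle, which had the fewest members and so the widest counting intervals. None of the 30 progenitor genes differed by 2-fold (list median −0.25, all genes −0.02). *Tagln* (the actin-binding protein transgelin) was at 49.3, 125 and 178 CPM in Matrigel-only, Vehicle and Palo, and the polyubiquitin gene *Ubb* at 178, 260 and 516 CPM. *Eno1* (the glycolytic enzyme enolase) was at 50.0, 138 and 127 CPM. *Ubb* and *Eno1* have near-identical copies in the genome, and how reads were divided among them is uncertain. *Gas6*, a ligand of the TAM receptor kinases, was at 364, 683 and 122 CPM, 2.98-fold (2.69 to 3.31) lower in Palo than in Matrigel-only, and *Spon1* (the matrix protein spondin 1) at 58.2, 49.7 and 18.0 CPM. *Uts2* was 17.7-fold (10.4 to 32.5) lower in Palo.

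Several interferon-induced genes were lower in the *Pi16*+ cells of Palo than in those of both other libraries. In cells exposed to interferon, the factor ISGF3 binds a short element with repeated GAAA and its reverse complement TTTC upstream of such genes. The upstream sequences of *Ifit1*, *Ifit3* and *Isg15*, which were lower in Palo than in both other libraries, are shown to give the reader the letters of such elements. Each is the 250 bases before the RefSeq start (GRCm38.p6), 5′ to 3′ on the gene's own strand: chr19:34640639-34640888 (plus), chr19:34583279-34583528 (plus) and chr4:156200819-156201068 (minus). Capitals mark matches, on either strand, to GAAA, any 2 bases and GAAA again.
Ifit1: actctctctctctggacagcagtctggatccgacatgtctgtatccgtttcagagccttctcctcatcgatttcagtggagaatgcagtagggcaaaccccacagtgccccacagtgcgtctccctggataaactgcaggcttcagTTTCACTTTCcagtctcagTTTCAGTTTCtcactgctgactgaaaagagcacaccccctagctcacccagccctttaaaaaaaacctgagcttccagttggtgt
Ifit3: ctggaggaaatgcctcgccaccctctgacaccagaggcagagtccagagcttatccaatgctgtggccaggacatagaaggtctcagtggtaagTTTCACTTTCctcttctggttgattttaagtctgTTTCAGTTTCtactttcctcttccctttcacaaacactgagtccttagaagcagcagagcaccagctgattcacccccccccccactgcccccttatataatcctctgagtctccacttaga
Isg15: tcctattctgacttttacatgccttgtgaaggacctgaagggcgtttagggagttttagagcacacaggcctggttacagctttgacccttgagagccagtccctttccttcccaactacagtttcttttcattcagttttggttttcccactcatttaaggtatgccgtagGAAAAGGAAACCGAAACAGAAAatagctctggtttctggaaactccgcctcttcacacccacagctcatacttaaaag

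The first bases of the matches lay at −104 and −85 in *Ifit1*, −156 and −122 in *Ifit3*, and −78, −72 and −66 in *Isg15*, where they overlap. The motif was present in 8 of the 12 interferon-list genes with a promoter window (15 genes were listed), against 1079 of all 27025 genes with a window of 300 bases (3.99%). Of the listed genes that were lower in Palo, *Bst2* had it and *Oasl2* did not, and *Stat2*, *Ifitm2* and *Ifitm3*, which were within 2-fold, had it too. A match is a string of letters and not a bound site.

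*Ifit1*, which encodes an RNA-binding antiviral protein, was at 68.8, 69.2 and 15.4 CPM in *Pi16*+ cells of Matrigel-only, Vehicle and Palo, or 4.48-fold (3.21 to 6.33) lower in Palo than in Vehicle. *Ifit3* was at 26.5, 52.8 and 4.29 CPM (12.3-fold, 7.06 to 23.0). *Isg15*, a ubiquitin-like modifier, was at 136, 163 and 49.1 CPM (3.31-fold, 2.72 to 4.04). In all 3 genes the Matrigel-only and Vehicle intervals lay above those of Palo. *Iigp1*, an interferon-induced GTPase outside the list, was at 66.9, 118 and 13.7 CPM. *Oasl2* was at 87.6, 62.3 and 30.0 CPM, the tethering factor *Bst2* at 302, 236 and 148 CPM, and *Ifi27l2a* at 1005, 755 and 650 CPM, the last within 2-fold.

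Of 12 interferon genes tested, 4, with *Ifit1*, *Ifit3* and *Isg15* among them, were lower in Palo than in Vehicle (list median −0.70), beside 2.45% of all genes, and *Ifit1*, *Ifit3*, *Isg15*, *Bst2* and *Oasl2* were lower in Palo than in Matrigel-only (−0.85), beside 0.782% of all genes. *Bst2* was just past 2-fold there and fell within it without likely doublets, without *Ptprc*-positive cells or with TMM scaling. None differed by 2-fold between Vehicle and Matrigel-only (0.04). Other stromal cells did not show this order for *Isg15* and *Ifit3*, with *Isg15* at 18.7, 44.2 and 46.2 CPM and *Ifit3* at 2.96, 3.12 and 6.09 CPM. There the list median was 0.10 for Palo over Vehicle and 0.21 for Palo over Matrigel-only, with 2 genes higher and none lower in each, beside 301 (4.36%) and 20 (0.29%) of all genes higher and 121 (1.75%) and 70 (1.01%) lower. *C1qa*-positive cells had 67.6, 164 and 64.7 CPM of *Isg15*. Among *Pi16*+ cells of Matrigel-only *Isg15* was at 28.9, 139 and 166 CPM in cells with 1, 2 to 4 and 5 or more *Pi16* UMIs, and in Palo at 45.9, 55.8 and 49.1 CPM.

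**Figure D5:**
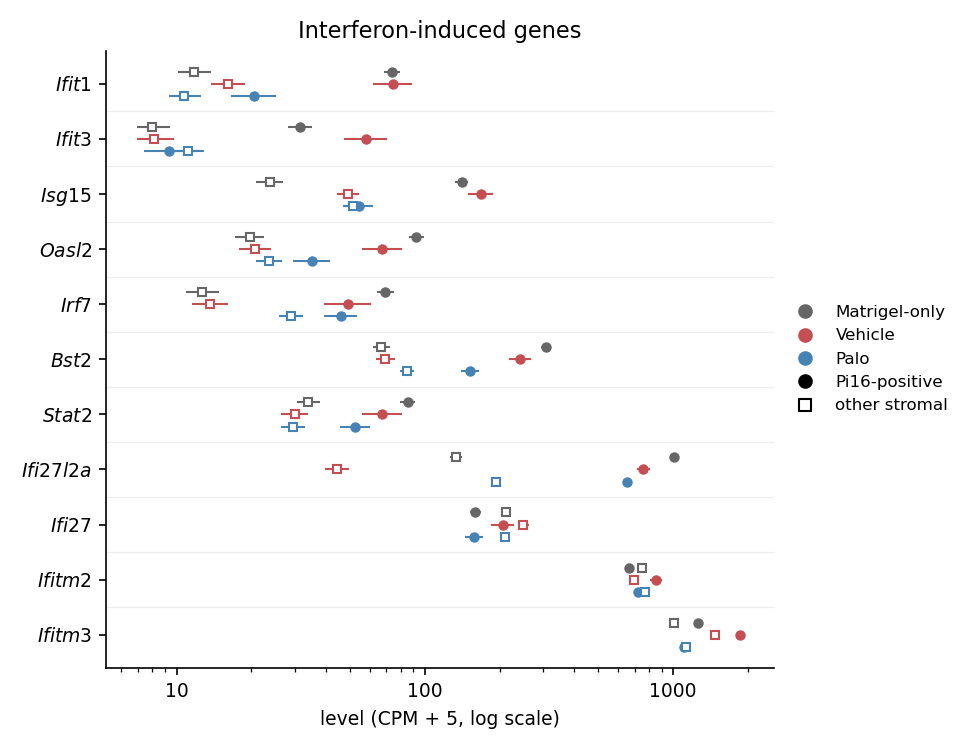
Levels of 11 of the 12 interferon-list genes tested (CPM plus 5, log scale, exact Poisson 95% intervals) in *Pi16*+ cells (filled circles) and other stromal cells (open squares). For *Ifit1*, *Ifit3* and *Isg15* the Palo circle lies to the left of the other circles, with *Isg15* at 49.1 against 136 and 163 CPM, and the squares of *Ifit3* and *Isg15* do not show this order.

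The pathways named by the design were described by ligands, receptors and targets. The counts of these and the later lists stand beside 2% of all genes higher and 1.62% lower in Vehicle over Matrigel-only, 1.16% and 2.45% in Palo over Vehicle, and 0.463% and 0.782% in Palo over Matrigel-only. Among BMP ligands *Bmp6* was at 33.7, 5.03 and 24.0 CPM in *Pi16*+ cells of Matrigel-only, Vehicle and Palo (6.71-fold higher in Matrigel-only than in Vehicle, 3.36 to 15.7) and at 7.81, 0.148 and 3.48 CPM in other stromal cells. Of 12 ligand and receptor genes tested, *Bmp6* was lower in Vehicle than in Matrigel-only, and *Bmp6* and *Bmp7* were higher in Palo than in Vehicle. With 20 CPM added neither gene was past 2-fold in Palo over Vehicle. The TGF-β receptor *Tgfbr2* was at 1130, 997 and 1188 CPM in *Pi16*+ cells, against 536, 117 and 406 CPM in other stromal cells. The *Tgfbr2* level was thus similar in the 3 libraries' *Pi16*+ cells. Over the 12 ligand and receptor genes, 10 had a ratio below 1 and 2 above 1 in Vehicle over Matrigel-only (list median −0.33).

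*Id1*, *Id2* and *Id3*, targets of BMP-SMAD signalling, were all within 2-fold between the libraries. *Id3* was at 238, 309 and 204 CPM in *Pi16*+ cells, while in other stromal cells it was at 247, 702 and 386 CPM. *Id1* was at 34.5, 36.5 and 29.7 CPM, against 52.3, 94.3 and 61.2 CPM. Of 7 BMP-response genes tested none differed by 2-fold between Vehicle and Matrigel-only (list median 0.46), and *Atoh8*, at 16.3, 26.4 and 9.14 CPM, was lower in Palo than in Vehicle (−0.59). In other stromal cells 2 of the 7 were higher in Vehicle than in Matrigel-only (0.79), beside 91 of all 6908 genes (1.32%). The inhibitory *Smad7* was at 37.3, 57.9 and 46.9 CPM and *Smad6* at 14.8, 27.0 and 12.3 CPM.

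Of 9 genes of the activin pathway only *Inhba* and *Fst* passed the minimum of 20 CPM. *Fst*, which encodes the activin-binding antagonist follistatin, was nearly level at 149, 143 and 135 CPM in *Pi16*+ cells and was at 131, 66.0 and 105 CPM in other stromal cells. *Inhbb*, the β-B subunit, was at 9.36, 8.18 and 2.86 CPM.

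Retinoid genes were examined because palovarotene acts on a retinoic acid receptor. *Rarg*, which encodes that receptor, was at 40.1, 28.9 and 44.3 CPM in *Pi16*+ cells and at 30.2, 45.5 and 30.6 CPM in other stromal cells. The retinaldehyde dehydrogenases *Aldh1a1* and *Aldh1a3* were at 66.4, 29.6 and 56.0 CPM and at 171, 113 and 180 CPM. *Rarb* and *Crabp2*, which are often induced by retinoids, remained at or below 6.92 CPM in every library, and *Cyp26b1*, an enzyme that degrades retinoic acid, was at 20.8, 43.4 and 8.57 CPM. *Tgm2* (transglutaminase 2) was at 56.3, 61.0 and 14.3 CPM, 3.94-fold (2.94 to 5.39) lower in Palo than in Matrigel-only. Of 12 retinoid genes tested *Cyp26b1* and *Tgm2* were lower in Palo than in Vehicle and none was higher (list median −0.16). 1 gene was higher and *Tgm2* lower in Palo than in Matrigel-only (−0.13), and *Aldh1a1* was lower in Vehicle than in Matrigel-only (0.09). *Aldh1a1* was just past 2-fold (log2 −1.05) and fell within it under 6 alternatives, among them the removal of likely doublets and of *Ptprc*-positive cells. *Cyp26b1* in Vehicle came from 8 cells, and with members chosen after thinning its ratio in Palo over Vehicle was within 2-fold (−0.50).

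Of the 29 lists, that of secreted immune signals had the most genes higher in Vehicle than in Matrigel-only. Of 15 chemokine and acute-phase genes tested 8 were higher in Vehicle than in Matrigel-only (list median 1.05), beside 2% of all genes, namely *Ccl7*, *Ccl8*, *Ccl11*, *Cxcl10*, *Cxcl13*, *Il33*, *Saa3* and *Lcn2*, and 5 of them remained past 2-fold without the top cell of each library. *Ccl11* was at 132, 323 and 134 CPM in *Pi16*+ cells and at 63.3, 24.8 and 19.2 CPM in other stromal cells. *Il33*, an alarmin cytokine, was at 152, 320 and 172 CPM. In Vehicle over Matrigel-only *Il33* was not past 2-fold without *Ptprc*-positive cells. *Il33* and *Ccl11* were not past it with the mean of the cells' own CPM, nor *Il33* and *Ccl7* with *Acan*-positive cells kept. *Ccl8* was at 68.7, 237 and 71.1 CPM, and *C1qa*-positive cells had 3543, 6455 and 1937 CPM of it, so both classes were highest in Vehicle. Against Vehicle, 6 of the 15 were lower in Palo (−0.88), beside 2.45% of all genes. Another 4 had a ratio above 1 in Palo over Vehicle, all within 2-fold, among them the monocyte attractant *Ccl2* at 253, 343 and 550 CPM.

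In other stromal cells the chemokine list had 1 gene higher and 4 lower in Vehicle than in Matrigel-only (−0.57), beside 1.32% and 5.79% of all genes in those cells. *Cxcl12*, a niche chemokine, was at 258, 445 and 159 CPM in *Pi16*+ cells but at 378, 61.1 and 257 CPM in other stromal cells. Complement *C3* was at 971, 1482 and 764 CPM in *Pi16*+ cells, against 402, 142 and 140 CPM. Of 9 complement genes tested *Masp1* was higher in Vehicle than in Matrigel-only (list median 0.23), and 2 genes, *Masp1* among them, were lower in Palo than in Vehicle (−0.63).

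Matrix, contractile and growth genes were described next. Of 28 matrix genes *Fmod* and *Thbs1* were higher and *Eln*, *Ogn*, *Gsn* and *Nid1* lower in Vehicle than in Matrigel-only (list median 0.11), beside 2% and 1.62% of all genes. *Gsn* and *Ogn* were within 2-fold under several alternatives, among them at least 2 *Pi16* UMIs and the mean of the cells' own CPM, and *Eln* was within it under those as well. *Eln*, the elastin gene, was at 6945, 3244 and 4458 CPM in *Pi16*+ cells and at 1282, 223 and 946 CPM in other stromal cells. Of 23 genes of activated fibroblasts *Acta2*, *Tagln*, *Tpm2*, *Col12a1* and *Runx1* were higher in Vehicle than in Matrigel-only (0.46). With members chosen by *Pi16* after thinning 1 listed gene was higher, and *Tagln*, *Tpm2*, *Col12a1* and *Runx1* were within 2-fold, as *Acta2*, *Tagln* and *Tpm2* were with at least 5 *Pi16* UMIs, where the ratio of *Tpm2* changed sign. *Timp1*, an inhibitor of matrix metalloproteases, was at 358, 1391 and 612 CPM (3.88-fold higher in Vehicle than in Matrigel-only, 3.67 to 4.10). *Ptn* (the growth factor pleiotrophin) was at 26.4, 164 and 41.4 CPM, and the Wnt antagonist *Sfrp1* at 347, 659 and 168 CPM. All 3 were highest in Vehicle.

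Lineage genes were described as transcription factors and adipogenic genes. Of 22 transcription factors tested *Meox1* and the adipogenic factor *Ebf2* were lower in Vehicle than in Matrigel-only (list median −0.33), *Meox1* was higher in Palo than in Vehicle (0.20), and the mesenchymal factor *Prrx1* was within 2-fold in each comparison. Of 8 adipogenic genes tested the lipid-handling genes *Fabp4*, *G0s2* and *Fabp5* were higher and *Dlk1* lower in Vehicle than in Matrigel-only (0.26), beside 2% of all genes higher and 1.62% lower. With members chosen by *Pi16* after thinning, 1 listed gene was higher. A single Vehicle cell held 76% of the *Fabp4* UMIs, and without the top cell of each library *Fabp4* was no longer past 2-fold.

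Cartilage genes were measured in cells from which the rule had removed those with *Acan*. *Sox9*, the transcription factor that directs chondrogenesis, was at 28.9, 81.8 and 33.4 CPM in *Pi16*+ cells and at 79.1, 249 and 69.8 CPM in other stromal cells. *Col2a1*, the cartilage collagen, had 0 UMIs in Matrigel-only and in Palo, which allows up to 0.454 and 1.05 CPM by the exact interval, and 16 UMIs in Vehicle (10.1 CPM). *C1qa*-positive cells of Vehicle had 23.9 CPM of *Col2a1*, above the level in *Pi16*+ cells, and the part of free RNA in the Vehicle value was not tested.

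*Mki67*, a gene of dividing cells, was at 42.0, 89.9 and 50.6 CPM, and at 2900 UMIs it was detected in 4.49%, 10.9% and 5.03% of *Pi16*+ cells. Of 12 cell-cycle genes tested 5 were higher in Vehicle than in Matrigel-only (list median 0.79), beside 2% of all genes, and 20 Vehicle cells carried the *Mki67* UMIs. *Mki67* itself was just past 2-fold and fell within it without likely doublets, without *Ptprc*-positive cells or without the top cell of each library. The count of listed genes was 3 without *Ptprc*-positive cells, 2 with 20 CPM added and 9 with members chosen after thinning. In other stromal cells *Mki67* was at 96.3, 70.2 and 90.7 CPM and no listed gene differed by 2-fold.

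Metabolic and stress genes were described by 4 lists. *Gapdh* was at 947, 1485 and 1153 CPM, and all 15 glycolysis genes tested had a ratio below 1 in Palo over Vehicle (list median −0.45), although only the glucose transporter *Slc2a1*, at 46.4, 53.5 and 17.7 CPM, passed 2-fold. All 15 were below 1 in other stromal cells too (−0.62), where 3 passed 2-fold, beside 1.75% of all genes lower. Among 15 hypoxia-related genes *Ndrg1*, *Mxi1* and *Ddit4* were lower in Palo than in Vehicle (−0.41), beside 2.45% of all genes, with *Ndrg1* at 133, 184 and 55.1 CPM. In other stromal cells 7 of the 15 were lower (−0.77). With 20 CPM added *Mxi1*, *Ddit4* and *Slc2a1* were no longer past 2-fold in *Pi16*+ cells, and *Mxi1* was not with members chosen after thinning. Of 17 immediate-early genes tested the transcription factors *Fosb*, at 58.5, 15.1 and 41.4 CPM, and *Egr1*, at 140, 43.4 and 109 CPM, were lower in Vehicle than in Matrigel-only (list median −0.47). *Egr1* was no longer past 2-fold with at least 5 *Pi16* UMIs. *Socs3* was higher in Vehicle but barely past 2-fold and fell within it under 7 alternatives. Of 10 genes of steroid handling *Pgr*, *Akr1c18*, *Akr1c14* and *Per1* were lower in Vehicle than in Matrigel-only (−0.67), beside 1.62% of all genes, although 1 was lower with members chosen by *Pi16* after thinning, and *Hsd11b1*, the cortisone reductase, was lower in Palo than in Vehicle, at 9.36, 20.1 and 3.14 CPM.

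RNA of other cell types was measured beside these values. The summed level of 14 macrophage markers in *Pi16*+ cells was 651, 463 and 586 CPM in Matrigel-only, Vehicle and Palo, against 36832, 37368 and 44945 CPM in *C1qa*-positive cells. In other stromal cells the sum was 446, 159 and 485 CPM, so it was lowest in Vehicle in both classes. Of 6 markers tested, 0, 5 and 0 were higher in *Pi16*+ than in other stromal cells of Matrigel-only, Vehicle and Palo. Of all genes 4.11%, 7.85% and 3.85% were higher. The most abundant marker in *Pi16*+ cells was *Cd74* in Matrigel-only and *Lyz2* in the other libraries. The 6 mural markers summed to 96.5, 91.2 and 78.8 CPM in *Pi16*+ cells, mostly the potassium channel gene *Kcnj8*, while the pericyte gene *Rgs5* had 4, 1 and 2 UMIs. In other stromal cells they summed to 32.4, 39.6 and 37.7 CPM, and the 2 mural markers tested were both higher in *Pi16*+ cells of each library. In *Pi16*+ cells the remaining sets were low. The 4 Schwann markers summed to 12.4, 11.3 and 5.14 CPM with *Sox10* at 0 in every library, the 6 mesothelial markers to 33.7, 23.9 and 15.7 CPM with *Msln* at 0, the 5 epithelial markers to at most 1.26 CPM, and the 5 T cell markers to at most 6.92 CPM. The share of these cell types in the differences above was not tested, and the alternative without *Ptprc*-positive cells is given in the closing section.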

How the data were processed

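Per the labels, cells of day 5 implants were encapsulated on a 10x Chromium Controller and sequenced as 2 x 150 paired ends. The submitters' processing notes name Cell Ranger 3.0.2, Seurat 3 and the build mm10. The authors deposited unnormalized UMI counts of 31053 genes per barcode. Counts of each cell class were summed per library and divided by the class total (CPM). Of the files, 6908 genes with at least 20 CPM in the *Pi16*+ cells of 1 library were compared, with 5 CPM added before the log2 ratio. Intervals are exact Poisson (CPM), Clopper-Pearson (shares), Newcombe (differences of shares) and conditional binomial (folds), at 95%. Thinned shares are the expected share of cells with a UMI at 2900 UMIs, the lowest 10th percentile rounded down, which left out 172, 64 and 46 stromal cells and 95, 11 and 21 members of Matrigel-only, Vehicle and Palo. Doublets were kept, because the threshold set by Scrublet (scanpy 1.11.5) marked almost no cell, and an alternative removed the top scores at 0.8% per 1000 cells. The ratios were checked on simulated counts. Python 3.11.15, numpy 2.4.6, scipy 1.17.1, pandas 2.3.3, and edgeR 4.0.16 for TMM (a library scaling) in R 4.3.3 were used.

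Named genes were the 10 highest and 10 lowest ratios of Vehicle over Matrigel-only and of Palo over Vehicle and the 6 of Palo over Matrigel-only, among genes of at least 50 CPM in 1 of the pair, without genes of the rule and without mt-, Rpl, Rps, Gm and Rik genes; the most abundant, highest and lowest member of each list; any member of the progenitor, BMP-response, retinoid and activin lists; and the 10 genes most like *Pi16*. Other list members, and the lowest genes beside *Pi16*, were named after their values were seen. The members and lists were chosen with earlier results of these data known. Gene positions are those of GENCODE vM21. The effect of 15 other settings, and of 4 more chosen after the data were seen, is given in the closing section. A few members of the lists are counted but not reported by name here.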

Additional observations from a re-analysis of the deposited data

Results flagged for a closer look

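For 8 genes the log2 ratio between 2 libraries passed 2-fold in opposite directions in *Pi16*+ cells and in other stromal cells. Each class is 1 library per condition, and the difference between the classes was not tested. For Vehicle over Matrigel-only the log2 ratio in *Pi16*+ and in other stromal cells was 1.26 and −1.20 for *Ccl11*, 1.52 and −1.43 for *Cxcl13*, and 1.5 and −3.15 for *Fabp4*, an adipocyte fatty acid carrier. A single Vehicle cell held 77.4% of the *Cxcl13* UMIs and 76% of the *Fabp4* UMIs in *Pi16*+ cells. Without the top cell of each library neither was past 2-fold in *Pi16*+ cells. *Ccl11* was not past it with the mean of the cells' own CPM. For Palo over Vehicle the log2 ratio was −1.47 and 1.19 for *Has1*, −1.45 and 1.99 for *Cxcl12*, −1.25 and 2.24 for *Mmp3* (stromelysin), and 1.15 and −1.10 for *Edn1*. A single Vehicle cell held 47.7% of the *Mmp3* UMIs, and without the top cell of each library *Mmp3* was not past 2-fold. *Edn1* was not past it with the mean of the cells' own CPM, and neither gene was with 20 CPM added. For Palo over Matrigel-only the log2 ratio was −1.38 and 1.11 for *Isg15*.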

How the results depend on the processing

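No paired analysis was possible because each condition had 1 library, and for the same reason no replicate could be left out. The order of the 3 shares of *Pi16*+ cells (Matrigel-only above Palo above Vehicle) held under every alternative run, and the values moved with the definition: with at least 2 *Pi16* UMIs they were 37.8%, 5.19% and 18.9% in Matrigel-only, Vehicle and Palo, with at least 5 (an alternative added after the data were seen) 25.5%, 2.82% and 12.6%, without thinning 55.7%, 9.71% and 32.3%, of all passing cells, thinned, 13.9%, 2.17% and 3.78%, and of stromal cells without *Acan* (also added) 46.3%, 16.4% and 23.8%. The counts of genes past 2-fold followed the pseudocount, the minimum level and the *Pi16* minimum. With 20 CPM added there were 66 higher and 53 lower genes in Vehicle over Matrigel-only, 31 and 84 in Palo over Vehicle, and 15 and 20 in Palo over Matrigel-only, and with a minimum of 50 CPM 76 and 70, 43 and 94, and 19 and 33. With 1 CPM added 88 genes were lower in Palo over Matrigel-only. With no minimum 210 genes were higher in Vehicle over Matrigel-only and 269 lower in Palo over Vehicle. With at least 2 *Pi16* UMIs 254 genes were lower in Palo over Vehicle, and with at least 5, 214 were higher in Vehicle over Matrigel-only and 257 lower in Palo over Vehicle. The log2 ratios that changed sign did so with at least 5 *Pi16* UMIs: *Acta2* in Palo over Vehicle (0.63), *Tpm2*, *Inhba* and *Cxcl13* in Vehicle over Matrigel-only (−0.16, −0.033 and −0.023), and *Inhba* in Palo over Vehicle (0.053). In that class the higher levels of *Acta2*, *Tagln*, *Tnn* and *Fabp5* and the lower levels of *Dlk1*, *Akr1c18*, *Itih5*, *Creb5*, *Wnt2*, *Egr1*, *Gsn*, *Ogn* and *Aldh1a1* in Vehicle over Matrigel-only were also no longer past 2-fold. Of the 75, 64 and 31 genes named in the text that passed 2-fold in Vehicle over Matrigel-only, Palo over Vehicle and Palo over Matrigel-only, 66, 62 and 29 remained with *Ptprc*-positive cells left out and 54, 57 and 29 with members chosen by *Pi16* after thinning, among the lost *Tagln*, *Pgr*, *Akr1c14*, *Akr1c18*, *Dpp4* and *Sema3c* in Vehicle over Matrigel-only and *Inhba*, *Ptn*, *Cyp26b1*, *Egr1* and *Mxi1* in Palo over Vehicle. Of all 138 higher and 112 lower genes in Vehicle over Matrigel-only 98 and 67 (71% and 59.8%) remained after thinning. The Vehicle values rest on 117 cells and 1590194 UMIs and are the least precise.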

Other observations

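A few genes of *Pi16*+ cells fell outside the groups described. *Pianp*, a membrane protein that binds the PILRα receptor, was at 14.3, 49.7 and 51.7 CPM in Matrigel-only, Vehicle and Palo, so the 2 libraries with rhBMP2 lay close together. In other stromal cells it was at 17.6, 40.1 and 51.4 CPM and in *C1qa*-positive cells at 18.6, 47.5 and 64.4 CPM, the same order in each class. The polyubiquitin gene *Ubb* likewise stood at 224, 281 and 553 CPM in other stromal cells and at 179, 222 and 585 CPM in *C1qa*-positive cells, so its high value in Palo was seen in all 3 classes of cells. *Nov* (CCN3, a secreted matricellular protein) was at 392, 438 and 877 CPM in *Pi16*+ cells and at 738, 75.5 and 901 CPM in other stromal cells. *Lpl*, the lipoprotein lipase gene, was at 628, 396 and 468 CPM in *Pi16*+ cells and at 386, 49.3 and 127 CPM in other stromal cells, and was lowest in Vehicle in both.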
